A study of Homo sapiens with 12 samples.

Results

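The genes described here are the kinases CDK4 and CDK6, the D‐type cyclins CCND2 and CCND3 and 6 CDK inhibitors (CDKN1A, CDKN1B, CDKN2A, CDKN2B, CDKN2C and CDKN2D). They are the direct target of palbociclib together with its natural partners and inhibitors, and they were chosen by name, as 10 of the 58233 genes in the expression table. RNA was sequenced from 12 libraries of HL‐60, a long established line of human acute myeloid leukaemia cells whose genotype is labelled as wild type, grown in RPMI medium with 10% foetal calf serum. Each of the 4 groups had 3 libraries and was collected at 3 h. The groups were untreated cells, cells with 100 nM all‐trans retinoic acid (ATRA, the ligand of the retinoic acid receptors), cells with 500 nM palbociclib (an inhibitor of the CDK4 and CDK6 proteins) and cells with both agents at those doses, called the combination. No vehicle is named for the untreated cells, and all results come from 1 cell line. The labels number the replicates 1 to 3 without saying whether they were separate cultures, so p‐values measure only the spread between these libraries.

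In G1, D‐type cyclins bind CDK4 or CDK6, and the active complexes phosphorylate RB and its relatives, which frees E2F factors to switch on S‐phase genes. INK4 proteins (CDKN2A to CDKN2D) bind CDK4 and CDK6 alone and keep the cyclin out, whereas CIP/KIP proteins (CDKN1A or p21, CDKN1B or p27) bind cyclin and kinase together and block CDK2 complexes. In myeloid cells, withdrawal from the cell cycle accompanies terminal differentiation, and CDKN1A is a known retinoid‐ and vitamin D‐responsive gene.

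The values are RPKM, which scales reads to the length of the gene and the size of the library, and were deposited as whole numbers, so 1 is the smallest step and a gene listed at 0 lay below it. RPKM corrects for gene length, so levels of different genes are set side by side here. The lengths used are not given, so comparisons and sums across genes depend on lengths that could not be checked. Fold changes and tests come from limma on log2(RPKM + 0.1), which understates the change of low genes, and a gene was called at a Benjamini‐Hochberg adjusted p‐value under 0.001 over the 7820 genes that reached 5 RPKM in 3 or more libraries. Of the 10 genes, 6 passed this filter. CDKN1A, CDKN2A and CDKN2D entered only with a lower filter (1 RPKM in 3 or more libraries, 14003 genes), and CDKN2B was at 0 in every library. The labelled identity was checked with marker genes. MPO (1077 to 1579 RPKM), PRTN3 (195 to 310) and SPI1 (80 to 112) were high in all 12 libraries, AZU1, CTSG, CEBPA and CD33 were also expressed (6 to 56), and ELANE, a defining promyelocyte gene, was nearly absent (0 to 1). Of the 10 markers of other lineages, CD79A was at 0 to 1 and the other 9 were at 0.

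Upstream DNA is shown for 3 of the genes, CDK4, CDKN1A and CDKN2D, because these were separated from untreated cells by ATRA without overlap of libraries. RefSeq promoters (GRCh38.p14) were found for 9 of the 10 genes, all but CCND2. Only the first start listed for each gene was used, and any other start of a gene was not searched. Each run holds the 250 bases before the RefSeq start on the strand of the gene, 5′ to 3′, and capitals mark matches to the E‐box CACGTG, the motif of the MYC and MAX family, which reads the same on both strands.
CDK4 (chr12:57752311-57752560, minus strand): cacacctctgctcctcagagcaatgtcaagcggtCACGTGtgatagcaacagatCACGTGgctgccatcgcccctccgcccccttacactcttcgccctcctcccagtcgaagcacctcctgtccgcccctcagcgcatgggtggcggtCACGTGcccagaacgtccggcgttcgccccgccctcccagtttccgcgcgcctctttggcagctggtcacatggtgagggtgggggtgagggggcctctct
CDKN1A (chr6:36678464-36678713, plus strand): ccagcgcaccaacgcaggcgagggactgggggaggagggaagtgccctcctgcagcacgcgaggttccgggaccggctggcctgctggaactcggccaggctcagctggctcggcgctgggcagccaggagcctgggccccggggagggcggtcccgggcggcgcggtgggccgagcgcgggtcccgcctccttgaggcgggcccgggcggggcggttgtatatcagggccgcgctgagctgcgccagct
CDKN2D (chr19:10568980-10569229, minus strand): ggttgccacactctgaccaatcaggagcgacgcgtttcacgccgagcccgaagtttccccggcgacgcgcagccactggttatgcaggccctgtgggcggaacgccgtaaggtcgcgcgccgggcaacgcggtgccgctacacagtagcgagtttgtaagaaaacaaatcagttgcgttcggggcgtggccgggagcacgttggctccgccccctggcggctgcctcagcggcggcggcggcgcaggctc
The CDK4 window held 3 E‐boxes. One E‐box or more was found in 6.49% of the 27305 promoters of this length, and 3 or more in 24 of them (0.0879%). CDKN2C had 1 E‐box, and the windows of CDK6, CCND3, CDKN1A, CDKN1B, CDKN2A, CDKN2B and CDKN2D had 0. The E2F motifs TTTCGCGC, TTTGGCGC and TTTCCCGC (2.38% of promoters, both strands) and the retinoid receptor core motifs AGGTCA and AGTTCA (19.8% of promoters, both strands) were in 0 of the 9 windows. The GC box GGGCGG (42.3% of promoters, both strands) was in 7 of the 9, with 5 matches in CCND3, 4 in CDKN1A, 3 each in CDK4 and CDK6, 2 each in CDKN2B and CDKN2D and 1 in CDKN1B. A match describes letters in a window and is not a bound site, and the absence of a match concerns these letters in this window only.

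In untreated cells, CDK4 was the most abundant of the 10 transcripts and CCND3 the second (means of 54.3 and 23.3 RPKM). CDK4 did not overlap CCND3, and CCND3 (18 to 27) did not overlap CDKN1B (10 to 12). CDKN1B, CDK6 (6 to 10), CCND2 (5 to 7) and CDKN2C (4 to 5) followed, and each of these overlapped its neighbour in the order. CDKN1A, CDKN2A and CDKN2D lay at 1 RPKM in each untreated library. CDK4, CCND3 and CDKN1B kept the first 3 places in all 4 groups, with no overlap between them in any group. With ATRA, the ranges of CDK6, CCND2, CDKN2C, CDKN1A and CDKN2D (3 to 6 RPKM together) overlapped from each gene to the next in the order, and CDKN1A and CDKN2D lay within the range of CCND2.

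**Figure D1:**
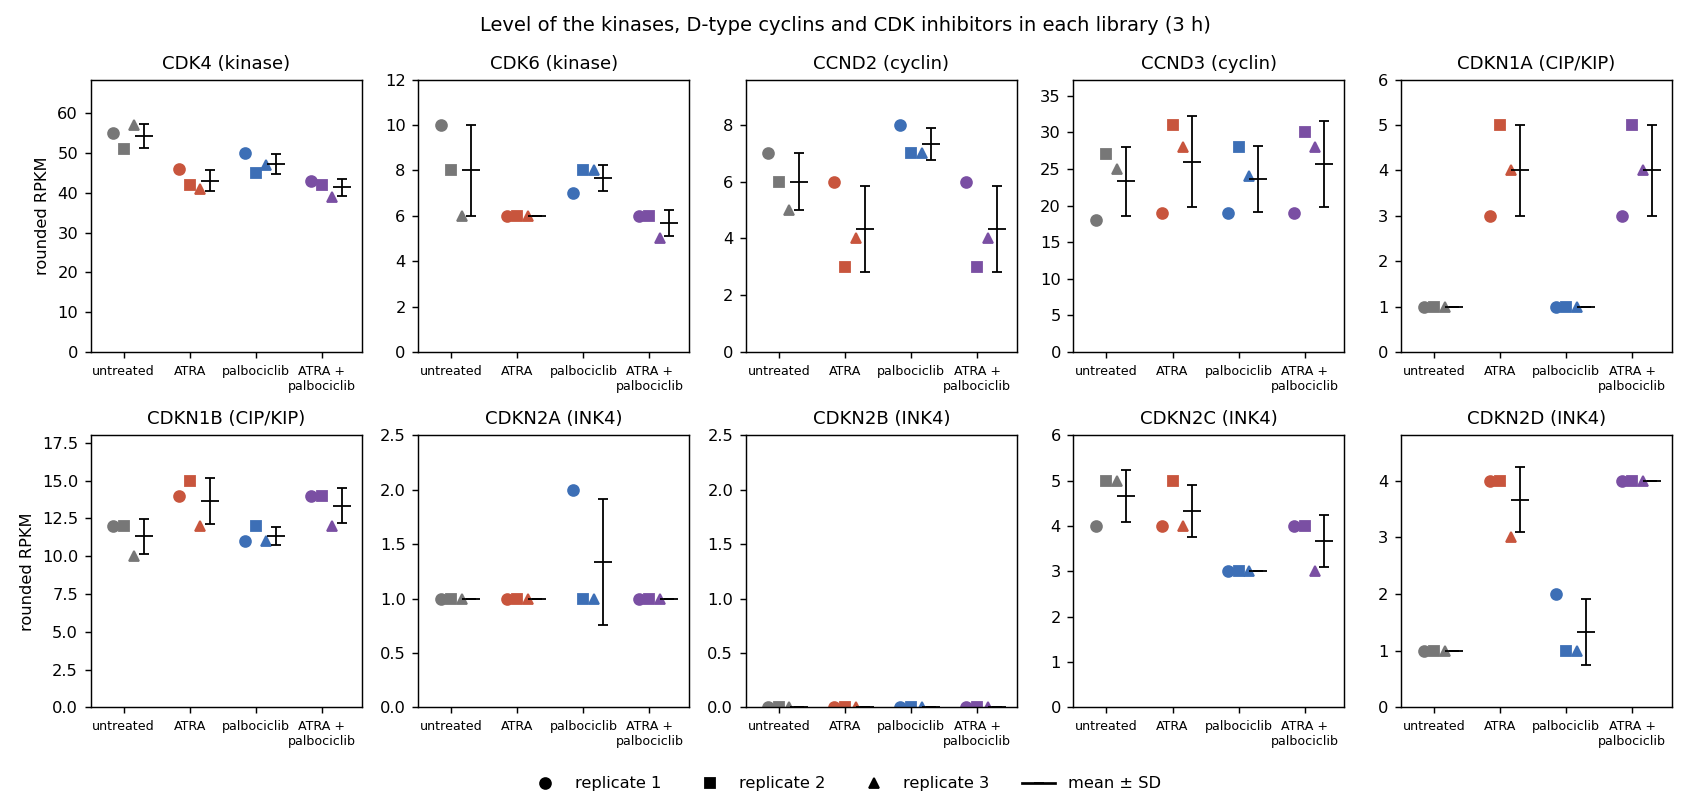
Rounded RPKM (vertical axes, each from 0) of the 10 genes in the 12 libraries by treatment, with symbols for the replicate number and a bar for the mean and SD of 3 libraries. CDK4 was lower in every treated library than in any untreated library, CDKN1A and CDKN2D were at 3 to 5 RPKM in every library with ATRA and at 1 to 2 without it, and CDKN2B was at 0 throughout.

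The transcript of CDK4, the main kinase of the pair by RNA level, was lower with each treatment. CDK4 (ENSG00000135446, chromosome 12, 57747727 to 57756013, minus strand, GRCh38, protein coding) stood at 55, 51 and 57 RPKM in untreated replicates 1, 2 and 3, at 46, 42 and 41 with ATRA, at 50, 45 and 47 with palbociclib and at 43, 42 and 39 with the combination. All 9 treated libraries lay below all 3 untreated ones, and the ATRA and combination libraries overlapped. The means were 54.3 ± 3.06, 43 ± 2.65, 47.3 ± 2.52 and 41.3 ± 2.08 (SD, n = 3 libraries each). The log2 fold change was −0.34 (SE 0.07, limma adjusted p = 0.00544) with ATRA, −0.20 (SE 0.07, adjusted p = 0.144) with palbociclib and −0.39 (SE 0.07, adjusted p = 0.00147) with the combination, which is 0.791, 0.871 and 0.761 of the untreated mean. None of these reached 0.001, while ATRA and the combination passed 0.05. With replicate number as a block, the combination was called (adjusted p = 0.000448), as it was after median ratio scaling (0.000911) and quantile normalization (0.000287), within a range of 0.000287 to 0.0114 over 22 alternatives. The block also brought palbociclib under 0.05 (adjusted p = 0.0398). With the filter at 1, the blocked limma values were 0.00186 for the combination and 0.0807 for palbociclib, so neither threshold was passed. Between the combination and ATRA, the log2 difference of CDK4 was −0.06 with a 95% interval of −0.21 to 0.09. In bulk RNA of this kind, fewer cells expressing a gene and less RNA per cell cannot be told apart.

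CDK4 shares 1369 exonic bases with TSPAN31 on the opposite strand, and the libraries are not stated to keep strand, so reads from the shared stretch cannot be told apart. TSPAN31 was listed at 2 to 3 RPKM in all 12 libraries, at 2, 3 and 3 with ATRA and at 2 in each untreated library. Whether reads of TSPAN31 entered the CDK4 values was not tested. CCND2 shares 999 exonic bases with ENSG00000285901 on the same strand. On the opposite strand it shares 162 with CCND2‐AS1 and 106 with ENSG00000290063. Also on the opposite strand, CDKN1A shares 146 exonic bases with DINOL, CDK6 86 with CDK6‐AS1 and CCND3 24 with ENSG00000223946. The effect of these overlaps on the values was not tested.

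CDK6, the second palbociclib target, was expressed at a much lower level. CDK6 (ENSG00000105810, chromosome 7, 92604921 to 92836573, minus strand) had 10, 8 and 6 RPKM in untreated cells, 6 in each ATRA library, 7, 8 and 8 with palbociclib and 6, 6 and 5 with the combination. The untreated libraries overlapped those of each other group, whereas the palbociclib and combination libraries did not overlap. The log2 fold change was −0.47 (SE 0.15, limma adjusted p = 0.0424) with the combination, −0.38 (SE 0.15, adjusted p = 0.112) with ATRA and −0.03 (SE 0.15, adjusted p = 0.961) with palbociclib. The combination value depended on single libraries, at −0.29 (adjusted p = 0.146) without untreated replicate 1 and −0.65 (adjusted p = 0.00358) without untreated replicate 3. It stayed under 0.05 without untreated replicate 3 or palbociclib replicate 1 (0.0487) and was above it without any other single library, at 0.053 to 0.146. It was also above 0.05 with the filter at 1 (0.076), with no filter (0.0801) and with only the libraries compared (0.154). CDK6 stood at 14.8%, 14.0%, 16.3% and 13.7% of CDK4 on average in untreated, ATRA, palbociclib and combination libraries, with a range of 10.5% to 18.2% among the untreated ones.

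The D‐type cyclins were expressed as CCND3 and, at a lower level, CCND2. CCND2 (ENSG00000118971, chromosome 12, 4269771 to 4305353, plus strand) had 7, 6 and 5 RPKM in untreated cells, 6, 3 and 4 with ATRA, 8, 7 and 7 with palbociclib and 6, 3 and 4 with the combination. ATRA and combination libraries of the same number had the same value, and every palbociclib library lay above every combination library. The log2 difference between the combination and palbociclib was −0.80 (SE 0.27, limma adjusted p = 0.0866), or 0.00958 with replicate number as a block. Against untreated cells it was −0.50 (SE 0.27) with ATRA (adjusted p = 0.225, block 0.0482) and with the combination (adjusted p = 0.188, block 0.0396), and 0.30 (SE 0.27, adjusted p = 0.649) with palbociclib. CCND2 reached 5 RPKM in every untreated and palbociclib library, but with ATRA or the combination only in replicate 1. With the filter at 1, the blocked limma values against untreated cells were 0.111 with ATRA and 0.0923 with the combination. Against palbociclib, the combination was then at 0.0326. The difference between the combination and ATRA was 0 with a 95% interval of −0.60 to 0.60.

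CCND3 was separated by replicate number and not by treatment. CCND3 (ENSG00000112576, chromosome 6, 41934934 to 42050357, minus strand) had 18, 27 and 25 RPKM in untreated cells, 19, 31 and 28 with ATRA, 19, 28 and 24 with palbociclib and 19, 30 and 28 with the combination. The 4 libraries numbered 1 held 18 to 19 RPKM and the 8 others 24 to 31 (means of 18.8 and 27.6), with no overlap, while the ranges of the 4 groups all overlapped. Of the 7820 genes, 105 (1.34%) had all 4 libraries numbered 1 below the 8 others and 162 (2.07%) had them above. The log2 fold change of CCND3 with ATRA was 0.15 (SE 0.24, limma adjusted p = 0.709), and the fit with replicate number as a block gave the same value an SE of 0.05 and an adjusted p of 0.0437. With the filter at 1, the blocked adjusted p was 0.0621. Over 22 alternatives the log2 fold change ran from −0.03 to 0.36. Within each number, CCND3 was higher with ATRA than in untreated cells by 1, 4 and 3 RPKM. The sum of CCND2 and CCND3 was 29.3 ± 4.04 RPKM in untreated cells, 30.3 ± 4.73 with ATRA, 31 ± 4 with palbociclib and 30 ± 4.36 with the combination (SD, n = 3). CCND1, the third D‐type cyclin, was at 1 to 2 RPKM in all 12 libraries.

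**Figure D2:**
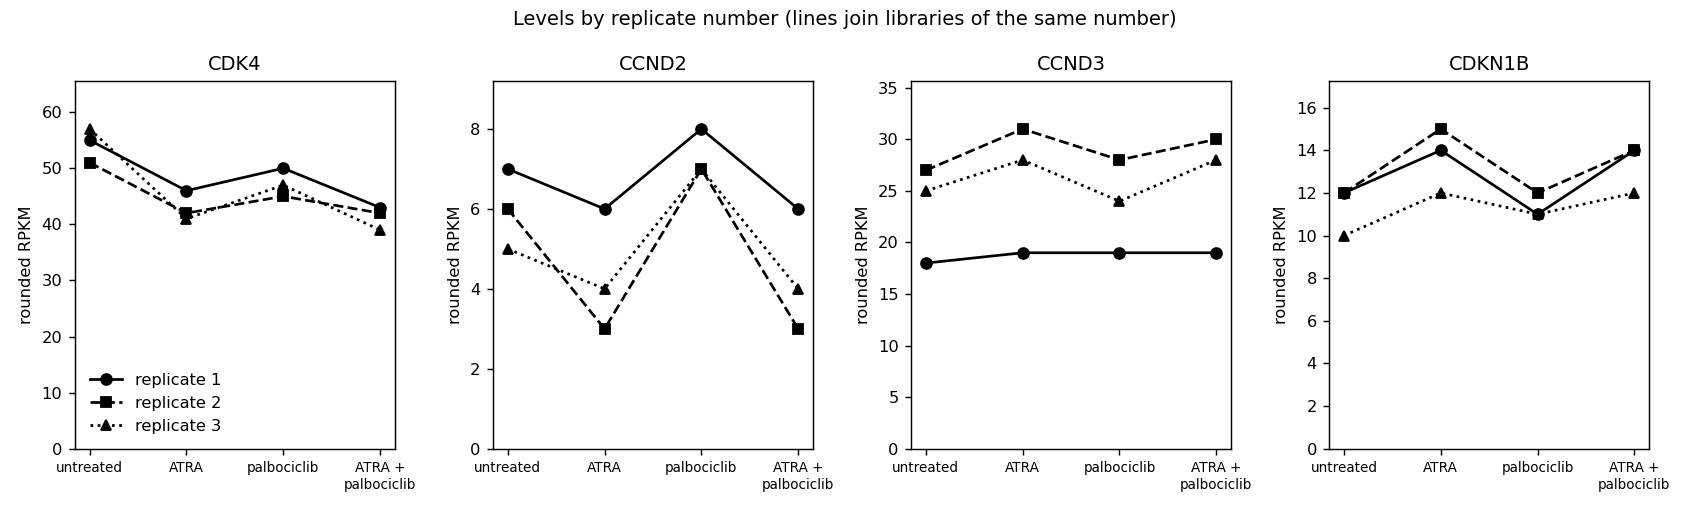
Rounded RPKM (vertical axes, from 0) of CDK4, CCND2, CCND3 and CDKN1B by treatment, with 1 line for each replicate number. CCND3 stayed at 18 to 19 RPKM in the libraries numbered 1 and at 24 to 31 in the others, whereas CCND2 was lower with ATRA than without it within each number.

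Among the CIP/KIP inhibitors, CDKN1A rose with ATRA and with the combination and was at the untreated level with palbociclib. CDKN1A (ENSG00000124762, chromosome 6, 36676460 to 36687337, plus strand), the p53‐ and retinoid‐responsive inhibitor p21, had 1 RPKM in each untreated library, 3, 5 and 4 with ATRA, 1 in each palbociclib library and 3, 5 and 4 with the combination. The 6 libraries with ATRA all lay above the 6 without it, and ATRA and combination libraries of the same number were identical. The mean of 4 ± 1 RPKM (SD, n = 3) against 1 is a 4‐fold difference, which rounding alone allows to lie between 2.33 and 9. With the filter at 1, the log2 fold change was 1.87 (SE 0.20) with ATRA (limma adjusted p = 0.000325), with the combination against untreated cells (adjusted p = 0.000248) and with the combination against palbociclib (adjusted p = 0.000427). The untreated and the palbociclib libraries were identical after rounding, so their spread is listed as 0. The exact permutation test of 3 against 3 libraries gave p = 0.1 (two‐sided), the smallest value this design allows. Between the combination and ATRA the log2 difference was 0, with a 95% interval of −0.46 to 0.46.

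The calls of CDKN1A at 0.001 depended on single libraries. For ATRA against untreated cells the adjusted p was 0.00194 to 0.00199 without any 1 of the untreated libraries, 0.00121 without ATRA replicate 2, 0.00228 without ATRA replicate 3 and 0.00101 without combination replicate 3. For the combination against untreated cells it was 0.00151 to 0.00156 without any 1 of the untreated libraries and 0.00173 without combination replicate 3. Against palbociclib, the call was lost in 9 of the 12 fits that left out a library (up to 0.00295) and kept without ATRA replicate 1, ATRA replicate 2 or combination replicate 1. The log2 fold change ran from 1.70 to 2.06 over these fits.

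CDKN1B (ENSG00000111276, chromosome 12, 12685498 to 12722369, plus strand), the inhibitor p27, was the most abundant inhibitor transcript in all 4 groups. It had 12, 12 and 10 RPKM in untreated cells, 14, 15 and 12 with ATRA, 11, 12 and 11 with palbociclib and 14, 14 and 12 with the combination. The groups overlapped at 12 RPKM, and within each number the ATRA library was above the untreated one by 2, 3 and 2 RPKM and the combination library by 2 in each. The log2 fold change was 0.27 (SE 0.10, limma adjusted p = 0.0957) with ATRA and 0.23 (SE 0.10, adjusted p = 0.116) with the combination, and 0.00623 and 0.00874 were the adjusted p‐values with replicate number as a block. With palbociclib the difference was 0.00 (SE 0.10), with a 95% interval of −0.23 to 0.23. CDKN1C, the third CIP/KIP gene, was at 0 in all libraries.

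The INK4 inhibitors differed from one another. CDKN2D (ENSG00000129355, chromosome 19, 10566460 to 10569059, minus strand), or p19, had 1 RPKM in each untreated library, 4, 4 and 3 with ATRA, 2, 1 and 1 with palbociclib and 4 in each combination library. The 6 libraries with ATRA were again all above the 6 without it. With the filter at 1, CDKN2D rose with the combination by a log2 fold change of 1.90 (SE 0.23, limma adjusted p = 0.00052), and the value with ATRA was 1.76 (SE 0.23, adjusted p = 0.00109). The untreated and the combination libraries were each identical after rounding, so the combination p‐value does not measure a spread between the libraries compared. Its SE came from the other groups and the variance model. The folds of the means were 4 and 3.67, which rounding alone allows to lie between 2.33 and 9 and between 2.11 and 8.33. The permutation p of 0.1, the smallest possible, applies here as well. The combination call was lost without any 1 of the untreated (0.00283 to 0.00297) or combination libraries (0.0026 to 0.00307) and without ATRA replicate 1 (0.00122) or 2 (0.00132). Without palbociclib replicate 1, the palbociclib library at 2, the ATRA value was called (9.14e-06), as was the difference of the combination from palbociclib (1.5e-05, against 0.00269 with all libraries). In that fit the log2 fold change with ATRA stayed at 1.76. The untreated, palbociclib and combination libraries then had no spread after rounding, so these smaller p‐values rest on identical rounded values.

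CDKN2C (ENSG00000123080, chromosome 1, 50960745 to 50974634, plus strand), or p18, was the only one of the 6 inhibitors that was lower in each palbociclib library than in each untreated one. It had 4, 5 and 5 RPKM in untreated cells, 4, 5 and 4 with ATRA, 3 in each palbociclib library and 4, 4 and 3 with the combination. The log2 fold change with palbociclib was −0.61 (SE 0.14, limma adjusted p = 0.0412), a ratio of 0.643 that rounding alone allows to lie between 0.484 and 0.84. It was −0.34 (SE 0.14, adjusted p = 0.0951) with the combination and −0.11 (SE 0.14, adjusted p = 0.656) with ATRA. The palbociclib value did not reach 0.001 under any of the 22 alternatives (0.0168 to 0.12), and it was above 0.05 without untreated replicate 2 (0.12) or 3 (0.113), palbociclib replicate 1 (0.0999), 2 (0.0965) or 3 (0.0988), ATRA replicate 1 (0.051) or 3 (0.0583) or combination replicate 2 (0.0503). It was also above 0.05 with the filter at 1 (0.0566), with no filter (0.0607) and with quantile normalization (0.0748). CDKN2C reached 5 RPKM in 3 libraries only (untreated replicates 2 and 3 and ATRA replicate 2) and in none with palbociclib, so it passed the filter at 5 through groups where it was high. CDKN2C shares 617 exonic bases with an unnamed gene (ENSG00000290102) on the opposite strand.

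The neighbouring genes CDKN2A (ENSG00000147889, chromosome 9, 21967752 to 21995301, minus strand) and CDKN2B (ENSG00000147883, chromosome 9, 22002903 to 22009305, minus strand) were at or near 0. CDKN2A, which encodes p16 and ARF, had 1 RPKM in 11 libraries and 2 in palbociclib replicate 1. CDKN2B, or p15, was listed at 0 in all 12 libraries. The antisense gene CDKN2B‐AS1, which shares 593 exonic bases with CDKN2A, was at 0 in all libraries.

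**Figure D3:**
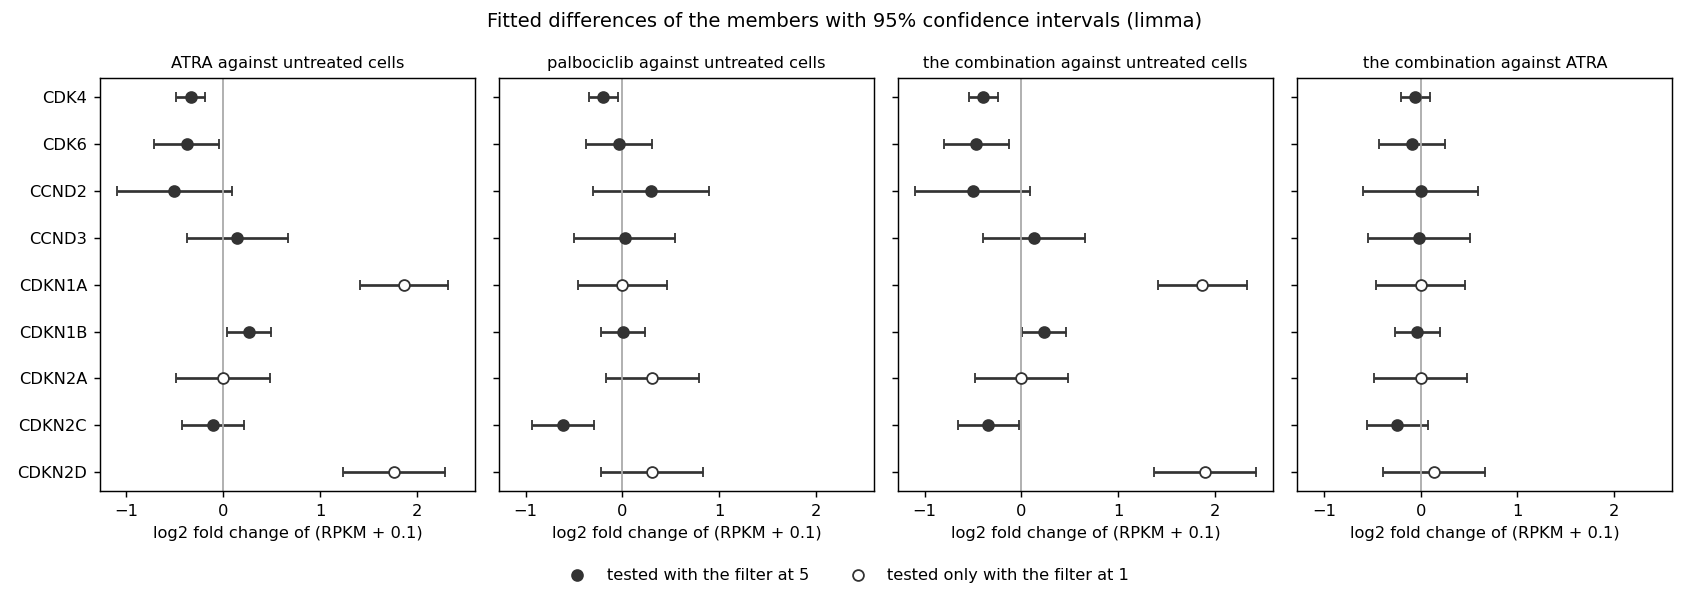
Log2 fold change of RPKM + 0.1 (horizontal axis) for 9 of the 10 genes in 4 comparisons, with 95% confidence intervals from limma. Filled points passed the filter at 5 and open points only the filter at 1, and CDKN2B, at 0 in every library, has no value. CDKN1A and CDKN2D stood at 1.76 to 1.90 with ATRA and with the combination, and all 9 intervals of the combination against ATRA included 0.

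Counted by treatment, ATRA was called for 0 of the 6 tested genes at 0.001 in limma, against 4.72% of all genes tested, and for 1 at 0.05 (CDK4, lower), against 20.3%. At an unadjusted p under 0.05 there were 3 (CDK4, CDK6 and CDKN1B), against 33.1% of all genes. The median log2 fold change of the 6 was −0.22, beside −0.01 for all genes. With replicate number as a block, 0 were called at 0.001, against 9.23%, and 4 passed 0.05 (CCND2 and CDK4 lower, CCND3 and CDKN1B higher), against 35.4%. Adding the filter at 1 to the block put CCND2 (limma adjusted p = 0.111) and CCND3 (0.0621) above 0.05. With the filter at 1, 1 of 9 was called at 0.001 (CDKN1A), against 3.68%. Of these 9 genes, 3 had libraries that did not overlap (CDK4 lower, CDKN1A and CDKN2D higher), against 20.9% of all genes.

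Palbociclib was called for 0 of the 6 at 0.001, against 0.499%, and for 1 at 0.05 (CDKN2C, lower), against 4.07%. This gene passed the filter through untreated and ATRA libraries only and was above 0.05 with the filter at 1, with no filter and with quantile normalization. At an unadjusted p under 0.05 there were 2 (CDK4 and CDKN2C), against 17.4%, and the median log2 fold change was −0.01, beside 0 for all genes. With the block, 0 were called at 0.001, against 1.06%, and CDK4 and CDKN2C passed 0.05, against 13.6%. Adding the filter at 1 to the block gave limma adjusted p‐values of 0.0807 for CDK4 and 0.0429 for CDKN2C. The libraries of these 2 did not overlap untreated cells, against 10.0% of all genes.

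The combination against untreated cells was called for 0 of the 6 at 0.001, against 8.04%, and for 2 at 0.05 (CDK4 and CDK6, lower), against 30.4%. At an unadjusted p under 0.05 there were 4 (CDK4, CDK6, CDKN1B and CDKN2C), against 40.5%, and the median was −0.37, beside −0.01. With the block, 1 gene (CDK4) was called at 0.001, against 15.4%, and 4 genes passed 0.05 (CCND2, CDK4 and CDK6 lower, CDKN1B higher), against 45.2%. Adding the filter at 1 to the block left CDK4 at a limma adjusted p of 0.00186 and put CCND2 (0.0923) and CDK6 (0.0722) above 0.05. With the filter at 1, CDKN1A and CDKN2D were called, against 5.42%. The untreated and combination libraries of CDKN2D had no spread after rounding. Again 3 of 9 genes did not overlap (CDK4, CDKN1A and CDKN2D), against 25.6%. With so few genes, these numbers are a description of the genes and are not read as a property of the group.

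Adding palbociclib to ATRA was not accompanied by a called difference in any of these genes. In the combination against ATRA, 0 of 6 were called at 0.001 (0% of all genes) and 0 at 0.05 (0.115%), with 0 at an unadjusted p under 0.05 against 3.67%, and 0 at 0.05 with the block against 0.652%. No gene of the 9 had libraries without overlap, against 2.18%. Replicate by replicate, the combination minus ATRA was 0 in each number for CCND2 and CDKN1A, and −3, 0 and −2 RPKM for CDK4. The departure from additivity (palbociclib added to ATRA compared with palbociclib added to untreated cells, on the log2 scale) was called for 0 of 6 at 0.001 (0% of all genes) and at 0.05 (0%), with 0 at an unadjusted p under 0.05 against 3.02%. Its 95% intervals on the log2 scale were −0.07 to 0.35 for CDK4 and −0.07 to 0.82 for CDKN2C. An interval that includes 0 does not show that the values were equal.

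Adding ATRA to palbociclib separated more of the genes. In the combination against palbociclib, 5 of 9 genes did not overlap (CDK4, CDK6 and CCND2 lower, CDKN1A and CDKN2D higher), against 13.1% of all genes. In limma, 0 of 6 were called at 0.001 (3.11% of all genes) and 0 at 0.05 (12.5%), while 4 had an unadjusted p under 0.05 (CCND2, CDK4, CDK6 and CDKN1B, against 23.8%). With the block, 3 passed 0.05 (CCND2 and CDK4 lower, CDKN1B higher), against 23.5%. Adding the filter at 1 to the block put CDK4 at a limma adjusted p of 0.052. With the filter at 1, CDKN1A was called, against 2.56%.

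Summed over genes, the RNA of the inhibitors relative to that of the kinases was higher with ATRA. CDK4 and CDK6 together held 59 to 65 RPKM in untreated cells, 47 to 52 with ATRA, 53 to 57 with palbociclib and 44 to 49 with the combination. The 6 inhibitors together held 18 to 20, 24 to 30, 17 to 19 and 24 to 28 RPKM. The inhibitor sum was 30.6% ± 2.91 of the kinase sum in untreated cells, 54.5% ± 6.93 with ATRA, 32.7% ± 1.61 with palbociclib and 55.3% ± 2.72 with the combination (SD, n = 3). The libraries with ATRA (50% to 62.5%) did not overlap those without it (28.6% to 34.0%). These sums describe RNA only and were not tested, and CDKN1B made up the largest share of the inhibitor sum in every group. The mean difference of ATRA from untreated cells was 3 RPKM for CDKN1A, 2.67 for CDKN2D and 2.33 for CDKN1B. It was 0 for CDKN2A and CDKN2B and −0.33 for CDKN2C. CDKN1A and CDKN2D lay at 1 RPKM in untreated cells, and every value summed was rounded to a whole number.

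**Figure D4:**
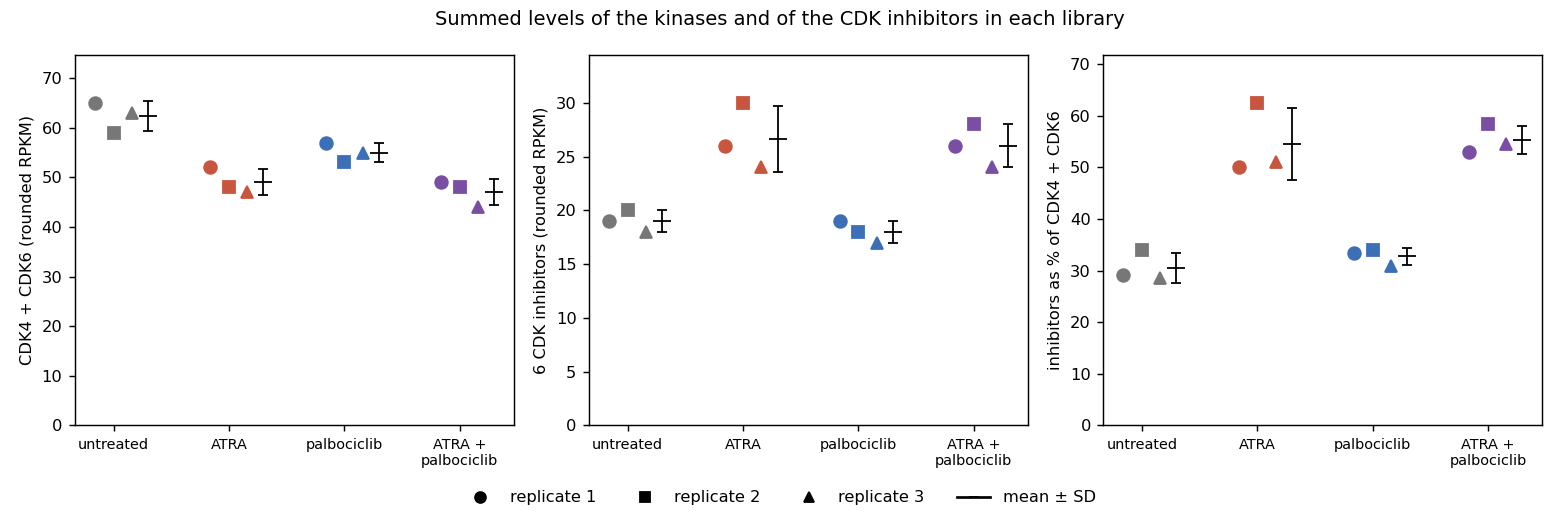
Summed rounded RPKM of CDK4 and CDK6, of the 6 CDK inhibitors, and the second as a percentage of the first, for each library by treatment, with the mean and SD of 3 libraries (all axes from 0). The percentage was 50% to 62.5% in the 6 libraries with ATRA and 28.6% to 34.0% in the 6 without it.

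Of 28 other genes that act with these proteins, 22 passed the filter, and those called were mainly regulators of CDK2 and of E2F, and they were lower. With ATRA, 3 fell and 0 rose at 0.001, against 4.72% of all genes called in either direction. With palbociclib 4 fell and 0 rose, against 0.499%, and with the combination 6 fell and 1 rose, against 8.04%. The median log2 fold changes of the 22 were −0.09, −0.04 and −0.09, beside −0.01, 0 and −0.01 for all genes. With the block the numbers were 7 lower and 1 higher with ATRA (9.23% of all genes), 6 and 0 with palbociclib (1.06%), and 8 and 1 with the combination (15.4%). CDC25A, the phosphatase that activates CDK2, had 36, 35 and 34 RPKM in untreated cells, 22, 21 and 22 with ATRA, 18, 19 and 18 with palbociclib and 15, 15 and 13 with the combination. No library of one group overlapped another, and the log2 fold changes were −0.69, −0.93 and −1.29 (SE 0.06, limma adjusted p = 3.37e-05, 7.36e-05 and 3.05e-07). SKP2, the ubiquitin ligase subunit that marks CDKN1B protein for degradation, fell from a mean of 45 ± 1.73 RPKM to 31 ± 1.73, 30.3 ± 1.53 and 26.3 ± 1.53 (SD, n = 3), which is −0.54, −0.57 and −0.77 on the log2 scale (adjusted p = 0.000225, 0.00078 and 1.28e-05). CCNE1, the E‐type cyclin that activates CDK2, also fell with each treatment, with log2 fold changes of −0.77, −1.50 and −1.71. It had 15, 13 and 15 RPKM in untreated cells and 9, 8 and 8 with ATRA. With palbociclib it had 5 in each library and with the combination 5, 4 and 4, so rounding limits these folds.

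The kinase CDK2 itself had 19, 20 and 18 RPKM in untreated cells, 14, 15 and 14 with ATRA, 12, 13 and 11 with palbociclib and 12, 12 and 10 with the combination. Each treated group lay below the untreated one, and the difference was called with the combination (log2 fold change −0.74, SE 0.09, limma adjusted p = 0.000114) and, with the block, also with palbociclib (0.000166) and ATRA (0.000518). TFDP1, the partner of E2F in DNA binding, was called lower with the combination (−0.47, SE 0.07, adjusted p = 0.000659, or 0.00155 with the filter at 1), and E2F1 with palbociclib and with the combination (−1.43 and −1.77, adjusted p = 0.000287 and 5.45e-06, or 0.00038 and 2.28e-05 with the filter at 1). E2F1 had 14, 12 and 12 RPKM in untreated cells and 9, 8 and 8 with ATRA. It had 5, 5 and 4 with palbociclib and 4, 4 and 3 with the combination. Every combination library was thus below 5, E2F1 passed the filter at 5 through other groups, and rounding limits these folds. With ATRA, TFDP1 (−0.33, adjusted p = 0.00798) and E2F1 (−0.60, adjusted p = 0.00837) were called lower only with the block (0.000447 and 0.000918). CCNA2, the A‐type cyclin of CDK2, was likewise called only with the block, for palbociclib (−0.41, adjusted p = 0.00583, block 0.000392) and the combination (−0.39, adjusted p = 0.00102, block 6.83e-05). CCNDBP1, which encodes a protein that binds cyclin D1, was the 1 gene called higher among the 22 that passed the filter, with 5, 4 and 5 RPKM in untreated cells, 7, 8 and 8 with ATRA, 6, 5 and 6 with palbociclib and 8, 8 and 9 with the combination. All libraries with ATRA lay above all without it, with log2 fold changes of 0.71 (SE 0.11, adjusted p = 0.00127, block 0.000588) for ATRA and 0.83 (SE 0.11, adjusted p = 0.000303) for the combination. RB1 itself was 22.3 ± 2.31 RPKM in untreated cells and 15.3 ± 3.06, 17.7 ± 3.22 and 13.7 ± 2.52 (SD, n = 3) with ATRA, palbociclib and the combination, not called at 0.001 (adjusted p = 0.0579, 0.377 and 0.014) but called with the block for ATRA (0.000976) and the combination (0.00017). In the combination against ATRA, 0 of the 22 were called at 0.001, and CCNE1, CDC25A and E2F1 were lower at 0.05.

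**Figure D5:**
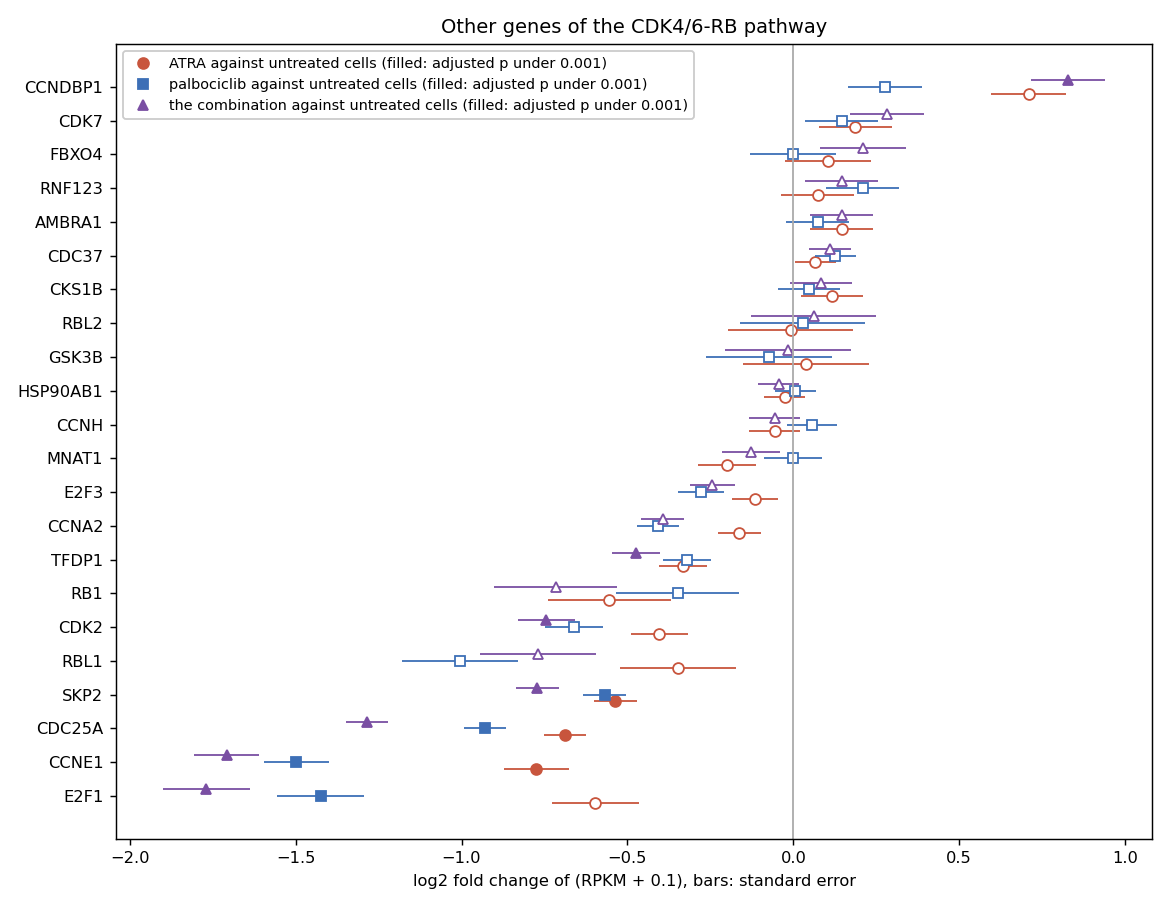
Log2 fold change of RPKM + 0.1 (horizontal axis) with its standard error for 22 other genes of the pathway, against untreated cells, with filled symbols for an adjusted p under 0.001. CDC25A, SKP2 and CCNE1 were called lower with all 3 treatments, and CCNDBP1 was the 1 gene of these 22 called higher, with the combination.

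The 2 genes whose levels ran most closely with each tested gene over the 12 libraries were CCT6A and ENOPH1 for CDK4 (Pearson r = 0.967 and 0.966), TMEM181 and FNBP4 for CDK6 (0.937 and 0.915), SDCCAG3 and NCBP2 for CCND2 (0.975 and 0.959), KIAA0586 and TPM4 for CCND3 (0.969 and 0.963), AL627309.7 and CCNG1 for CDKN1B (0.91 and 0.909) and ASF1B and CDC6 for CDKN2C (0.945 and 0.93). These are the highest of 7819 correlations for each gene, over libraries that share treatments and replicate numbers, and they are given as a description.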

How the data were processed

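Poly(A) RNA of 12 HL‐60 libraries was sequenced after TruSeq preparation on an Illumina HiSeq instrument. Per the labels and the study's methods, the authors mapped reads to hg38 with HISAT2, counted them with htseq-count in default mode and tested counts with voom in Degust, while tool versions are not given in the sources used here. The deposited values are RPKM that the authors rounded to whole numbers, without pooling of replicates, so they were handled as a score whose smallest step is 1, not as counts. The gene lengths behind them are not given in the sources used here. Library depth cannot be read from such values, so no counting interval is given and errors are the SD over 3 libraries. Columns were matched to the samples by title, with 0 unmatched.

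Limma 3.58.1 in R 4.3.3 was fitted to log2(RPKM + 0.1) with 1 mean per group over all 12 libraries and a variance trend, for the 7820 genes reaching 5 RPKM in 3 or more libraries. Benjamini‐Hochberg adjustment ran over all genes of a comparison, with calls at 0.001. The fit was also run on simulated data, with the genes that passed the filter at 5 and with changes larger than those fitted for CDK4. That run does not cover CDKN1A, CDKN2A or CDKN2D. Tables and plots used Python 3.11.15. Alternatives were lower filters, pseudocounts of 0.5 and 1, other scalings and variance models, only the libraries compared, a threshold of 0.05, the replicate number as a block, and leaving out each library. Same‐numbered libraries deviated together between ATRA and the combination (correlation across genes 0.782 to 0.908), ATRA and palbociclib (0.497 to 0.751) and palbociclib and the combination (0.438 to 0.702), but with untreated cells the values were 0.0453 to 0.367, so blocked values are given beside the results they change. All 10 genes are named, as are genes of the pathway list that were called and further D‐type cyclin and CIP/KIP genes, and for each tested gene the 2 most correlated genes. The genes, lists and filter were chosen with earlier results of these data known. Coordinates are from GENCODE v44 (GRCh38, the same assembly as hg38) and promoters from RefSeq (GRCh38.p14).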

Additional observations from a re-analysis of the deposited data

How the results depend on the processing

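With the settings given first, 0 of the 6 tested genes were called at 0.001 in each of the 6 comparisons, and this number was the same without any 1 of the 12 libraries. For ATRA against untreated cells it was 1 with the filter at 1 and with no filter, 1 at a threshold of 0.05 and 4 at 0.05 with the replicate block. For palbociclib it was 1 at 0.05 and 2 at 0.05 with the replicate block. For the combination against untreated cells it was 2 with the filter at 1 and with no filter, 1 each with median ratio scaling, quantile normalization and the replicate block, 2 at 0.05 and 4 at 0.05 with the replicate block. For the combination against palbociclib it was 1 with the filter at 1 and with no filter, and 3 at 0.05 with the replicate block. The lower filters added CDKN1A, CDKN2A and CDKN2D to the genes tested, and the cause of the other differences was not tested. At 0.001 the replicate block changed no other call of the 6 genes. No called fold change changed sign under any alternative. For CDKN1A and CDKN2D, the fits with the filter at 1 that used the replicate block or left out a library were chosen after seeing the data. Rounding limits these 2 genes most, since 1 RPKM may stand for 0.5 to 1.5, identical replicates hide their spread, and 3 libraries per group cannot give an exact permutation p below 0.1.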

Other observations

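The genes that assemble, fold or degrade the cyclin D complexes were measured in the same libraries, and those that passed the filter were not called at 0.001 in any of the 6 comparisons, with or without the replicate block. They were chosen for naming after their values were seen. The CDK‐activating kinase genes CDK7, CCNH and MNAT1 lay at 6 to 12 RPKM in all 12 libraries. The kinase chaperones were abundant, with CDC37 at 81 to 96 RPKM and HSP90AB1 at 903 to 1036. The cyclin D ubiquitin ligase genes AMBRA1, FBXO4 and FBXO31 and the cyclin D kinase GSK3B lay between 1 and 9 RPKM. SERTAD1, which encodes a CDK4‐binding protein, had 1 RPKM in each of the 6 libraries without ATRA and 2 in each of the 6 with it, and CCNE2 had 3 RPKM in each untreated library, 1, 1 and 2 with ATRA and 0 in each library with palbociclib or the combination. Both lay below the filter at 5, and their replicates were mostly identical after rounding. With the filter at 1, limma called SERTAD1 higher with ATRA (adjusted p = 2.35e-12), with the combination against untreated cells (2.07e-12) and with the combination against palbociclib (3.35e-12). Every group had a spread of 0 after rounding, so these p‐values do not measure a spread between libraries and are not read as evidence. CCNE2 passed the filter at 1 through untreated and ATRA libraries only, so its values are given as a description, with no test. Of the list, RBL1 had 12, 11 and 11 RPKM in untreated cells, 7, 10 and 10 with ATRA, 5, 7 and 5 with palbociclib and 6, 8 and 6 with the combination (limma adjusted p = 0.00948 with palbociclib, 0.00332 with the replicate block). RBL2, E2F3, CKS1B and RNF123 were not called at 0.001 in any comparison with untreated cells, with or without the block, and E2F2, at 1 to 2 RPKM, lay below the filter at 5.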
